A study of Mus musculus with 2 samples.

Results

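The genes described here are 10 genes of the Notch pathway that are known for keeping muscle stem cells quiescent: the ligands Dll1 and Jag1, the receptors Notch1, Notch2 and Notch3, the DNA-binding effector Rbpj, its coactivator Maml1 and the target genes Hes1, Hey1 and Heyl. They were listed by name as genes of this pathway, with earlier results of these data known, out of 21938 protein-coding genes of the annotation. For each gene, the peaks of YY1 (Yin Yang 1, a zinc finger transcription factor that can activate or repress) were placed against its transcript start sites. A summit, the base with the highest pileup in a peak, was called a promoter summit when it lay within 1000 bp of a start site.

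The series holds 1 YY1 ChIP-seq library from mouse MuSCs, the satellite cells or stem cells of skeletal muscle, and 1 background library, and its peak list has 4681 peaks. ChIP-seq sequences the DNA that an antibody brings down, so bound sites appear as pileups of fragments. According to the study's methods the cells were sorted from pooled Ctrl mdx mice (Pax7CreERT2/R26YFP; Yy1+/+; mdx), and were freshly isolated. These mice lack dystrophin, carry a tamoxifen-inducible Cre driven from Pax7 and a YFP reporter, and have intact Yy1. The labels instead describe cultured cells, and the series' design text calls them WT, so genotype and state of the cells are given here with that conflict. The age of the mice is not given in the sources used here. A peak list holds no expression, so the satellite cell label could not be checked against its markers. The background library is named input in the labels and IgG in the methods, and was not analysed here. With 1 YY1 library there are no replicates, no value has an error between animals, and no difference was tested. The depth computed from the local background was 13357713 fragments. The fold enrichment given below for a peak is the caller's ratio of the fragments at the summit plus 1 to the local background plus 1, so it is lower than the plain quotient of the fragments and the background printed beside it. At the most frequent background, 1.54 fragments at 1370 peaks, the caller's p limit of 0.0001 needed at least 8 fragments, or a fold enrichment of 3.55, and weaker binding over that background was not detectable at this depth. Over higher backgrounds lower folds passed, down to 1.49.

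Notch signalling acts between touching cells. A ligand of the Delta or Jagged family on one cell pulls on a receptor of its neighbour, the receptor is cut by ADAM proteases and gamma-secretase, and its intracellular domain enters the nucleus. There it joins RBPJ, which otherwise sits on DNA with corepressors, and a Mastermind protein such as MAML1, and switches on repressors of the Hes and Hey families. In satellite cells this pathway is known to hold cells in quiescence, and loss of Rbpj is known to make them leave it and differentiate.

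YY1 summits lay in the promoters of 4 of the 10 genes, Jag1, Notch2, Rbpj and Hey1, so that the ligands, the receptors, the effector and the targets each had 1 gene with such a summit. Among all protein-coding genes the share was 18.8% (4119 genes, 95% exact binomial interval 18.3% to 19.3%, which covers counting error only). CpG-rich promoters, with an observed to expected CpG ratio of at least 0.6 over 500 bp either side of a start site, carried most of the promoter summits. Of the 11105 genes with such promoters 35.4% had one, against 1.71% of the other genes. The promoters of 9 of the 10 genes were CpG-rich, all but that of Heyl, and 4 of those 9 had a summit. With so few genes, nothing particular to the Notch genes can be read from this count.

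The reference sequences below (GRCm38, 5′ to 3′ along the gene's own strand) surround the summits in or near the start sites. They are shown because they are the DNA at the highest pileup of each peak, and because YY1 is known to recognise the core ATGGC, which is in capitals wherever it occurs.
Jag1, chr2:137117309-137117369, minus strand: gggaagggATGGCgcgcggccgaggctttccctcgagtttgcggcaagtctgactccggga
Notch2, chr3:98013484-98013537, plus strand: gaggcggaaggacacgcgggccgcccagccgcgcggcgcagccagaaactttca
Notch3, chr17:32164130-32164190, minus strand: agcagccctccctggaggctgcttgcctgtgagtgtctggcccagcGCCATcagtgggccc
Rbpj, upstream summit, chr5:53589190-53589250, plus strand: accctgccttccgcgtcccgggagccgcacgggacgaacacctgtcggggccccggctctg
Rbpj, start site summit, chr5:53590445-53590474, plus strand: cttgtccgcggaggagcggcctgcgcatgc
Hes1, far upstream summit, chr16:30063579-30063639, plus strand: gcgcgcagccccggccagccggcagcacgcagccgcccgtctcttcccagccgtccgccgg
Hes1, near upstream summit, chr16:30064243-30064303, plus strand: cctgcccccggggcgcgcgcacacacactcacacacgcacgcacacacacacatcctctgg
Hey1, chr3:8667282-8667342, minus strand: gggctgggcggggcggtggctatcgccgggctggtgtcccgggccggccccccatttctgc
In Notch3 the core is printed as GCCAT, its reverse complement. The stretches are rich in G and C, and the Hes1 stretch nearest to the start site also holds a run of alternating c and a.

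**Figure D1:**
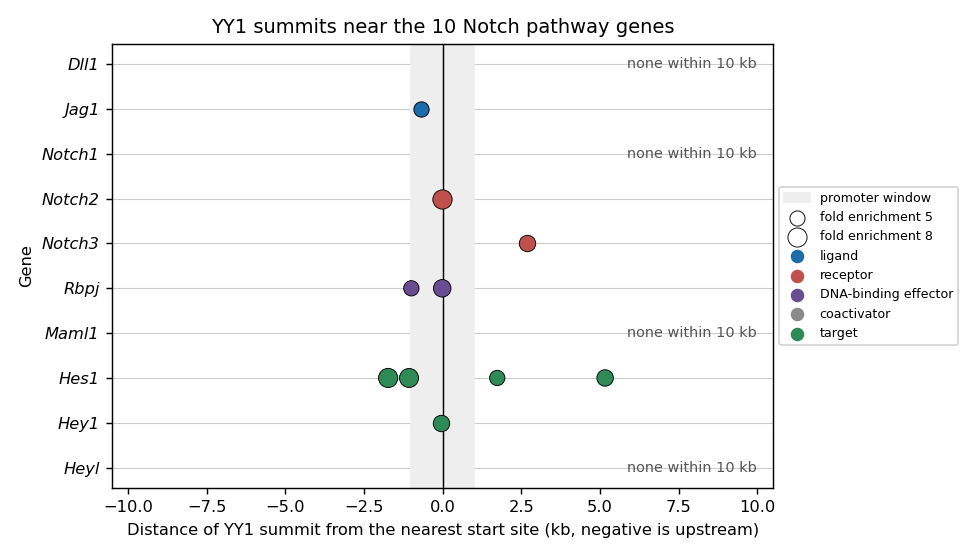
Each row is a gene and each point a YY1 summit within 10 kb of one of its transcript start sites. The x axis gives the signed distance in kb, the point area is proportional to the fold enrichment over the local background, the colour gives the role, and the grey band is the promoter window of 1000 bp either side. Of the 10 summits, 5 lie in the band, 4 belong to Hes1 outside it, 1 is in Notch3, and Dll1, Notch1, Maml1 and Heyl have none.

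Counting all peaks within 10 kb of a start site or inside a gene, the 10 genes had 10 YY1 peaks, at 6 genes. For the whole set of protein-coding genes the nearest summit lay within 10 kb in 22.5%, and a summit lay inside the gene in 13.7%, against 6 and 3 of the 10 genes. The genes with a summit inside were Notch3, Rbpj and Hes1. The median distance of the nearest summit was 1.88 kb for the 10 genes and 93.7 kb for all protein-coding genes. That median covers a split set, since 6 genes had a summit within 2.69 kb and the other 4 none within 67.1 kb. Of the 10 genes, 9 had CpG-rich promoters, against 50.6% of all protein-coding genes. The distances and shares were not set against CpG-rich genes alone, so nothing particular to the Notch genes can be read from them.

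**Figure D2:**
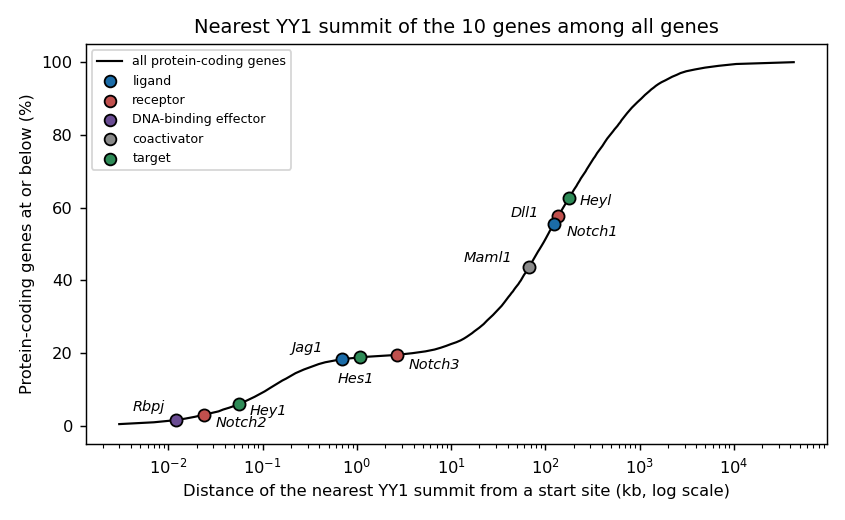
The line gives the percentage of all 21938 protein-coding genes whose nearest YY1 summit lies at or below the distance on the x axis (kb, log scale), and the points mark the 10 genes, coloured by role. Rbpj, Notch2 and Hey1 sit within 100 bp of a summit, Jag1, Hes1 and Notch3 between 0.695 and 2.69 kb, and Maml1, Dll1, Notch1 and Heyl between 67.1 and 178 kb.

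Among the ligands, YY1 was found at Jag1 and not at Dll1. Jag1 (ENSMUSG00000027276.7), a Jagged-type ligand, lies on the minus strand at chr2:137081456-137116644. Its peak at chr2:137117201-137117415 spanned 215 bp, the narrowest width in the list, and its summit was 695 bp upstream of the start site. The summit held 12 fragments over a local background of 1.54, a fold enrichment of 5.13 (95% counting interval 2.84 to 8.66). That is a peak of middle height, with 48.2% of promoter peaks lower. Its distance is less usual, since only 5.73% of the protein-coding genes with a promoter summit had the nearest one over 500 bp away, and Jag1 has no summit in a window of 500 bp.

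Dll1 (ENSMUSG00000014773.13), a Delta-type ligand, lies at chr17:15367354-15376872 on the minus strand. Its nearest summit was 124 kb upstream of the start site, beyond the starts of 2 other protein-coding genes. With 13 fragments and a fold of 4.20, this summit stood in the promoters of Psmb1, a proteasome subunit gene, and Tbp, the TATA-binding protein gene. Of all protein-coding genes 55.5% had a nearer summit, so Dll1 sits near the middle of all genes.

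The 3 receptors, which receive the ligand at the cell surface, had 3 different arrangements. Notch2 (ENSMUSG00000027878.11, chr3:98013527-98150361, plus strand) had a summit at its start site. The peak at chr3:98013318-98013904 was 587 bp wide and its summit was 24 bp upstream of the start. It held 28 fragments over a background of 2.55, a fold of 8.17 (interval 5.53 to 11.7), the highest of the 10 peaks. In the whole list 95.7% of peaks had a lower fold.

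Notch3 (ENSMUSG00000038146.8, chr17:32120820-32166852, minus strand) had no promoter summit but a peak in an intron, 2692 bp downstream of its start. This peak at chr17:32164037-32164251 was 215 bp wide and held 14 fragments over 1.54, a fold of 5.92 (interval 3.41 to 9.66). It was the least CpG-rich of the 10 peaks. Its CpG ratio was 0.15 while the other 9 lay between 0.821 and 1.02, and 12.8% of all peaks were below 0.6. Repeats covered 19.1% of it, the highest share among the 10.

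Notch1 (ENSMUSG00000026923.15, chr2:26457903-26516663, minus strand) had no YY1 summit in or near it. The nearest one stood 136 kb upstream of its start site at chr2 position 26503822, past the starts of 4 other protein-coding genes, with 15 fragments and a fold of 6.31. It lay in the promoters of Snhg7os and Snora17, a noncoding gene and a small nucleolar RNA gene. The promoter of Notch1 was CpG-rich, with a ratio of 0.728, and 57.7% of protein-coding genes had a nearer summit.

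In the nucleus the pair that builds the activator complex was split as well. Rbpj (ENSMUSG00000039191.12, chr5:53466152-53657362, plus strand), which binds DNA for the pathway, had 2 promoter summits. The stronger one was 12 bp upstream of the start site at position 53590471, inside the first exon of transcripts that start further upstream. Its peak at chr5:53589942-53590791 was 850 bp wide, the widest of the 10, and held 19 fragments over 1.98, a fold of 6.72 (interval 4.18 to 10.3). The weaker one was 994 bp upstream of the start site at 53590214, in an intron of a longer transcript, so it lay just inside the promoter window. Its peak at chr5:53589113-53589638 held 15 fragments over 2.12, a fold of 5.12 (interval 3.01 to 8.24). At least 2 promoter summits were found at 5.1% of the protein-coding genes that had any (210 genes). The gene has 5 start sites in the basic annotation, while its record starts further upstream with a transcript outside that set. The most upstream of the 5, at 53555834, had its nearest summit 33386 bp away, so both YY1 peaks lay at the downstream start sites.

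Maml1 (ENSMUSG00000050567.16, chr11:50255634-50292311, minus strand), the Mastermind coactivator, had no summit within 67.1 kb. Its nearest one, with a fold of 4.71, lay downstream in the promoter of Mgat4b, a glycosyltransferase gene, past 2 gene starts. The Maml1 promoter was CpG-rich, with a ratio of 0.918. A nearer summit was found for 43.7% of protein-coding genes.

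Of the target genes, which encode repressors with a basic helix-loop-helix domain, Hey1 had a promoter summit, Hes1 had summits on both sides of its start, and Heyl had none. Hey1 (ENSMUSG00000040289.8, chr3:8663359-8667256, minus strand) had a peak at chr3:8667156-8667617, with its summit 56 bp upstream of the start. The peak held 14 fragments over 1.54, a fold of 5.92 (interval 3.41 to 9.66), and its GC content of 79.7% was the highest of the 10. Heyl (ENSMUSG00000032744.4, chr4:123233556-123249875, plus strand) had its nearest summit 178 kb downstream, within Macf1, which encodes a cytoskeletal linker, with 14 fragments and a fold of 3.79. It was the most distant of the 10, and its promoter had the lowest CpG ratio, 0.537.

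Hes1 (ENSMUSG00000022528.8, chr16:30064384-30067796, plus strand) was the gene with the most YY1 peaks. It had 4 summits within 10 kb of the start site at 30065340, a number that 30 protein-coding genes reached (0.137%), yet none of the 4 lay within 1000 bp of that start. The far upstream summit, 1731 bp before it, held 23 fragments over 1.98, a fold of 8.07 (interval 5.24 to 11.9), in a peak of 717 bp at chr16:30063077-30063793. The near upstream summit, at 1067 bp, just missed the promoter window and held 19 fragments over 1.54, a fold of 7.89 (interval 4.91 to 12.1), in a peak at chr16:30063961-30064460. Of all peaks, 95.1% and 94.2% had a lower fold than these summits.

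Downstream of the Hes1 start the peaks were lower. A summit at 1738 bp, in coding exon 4, held 13 fragments over 1.74, a fold of 5.11 (interval 2.89 to 8.47), in a peak at chr16:30066922-30067406. The fourth summit, 5167 bp from the start and past the end of the gene, held 15 fragments over 1.70, a fold of 5.93 (interval 3.48 to 9.54), at chr16:30070022-30070598. The gene record starts upstream of the start site used, with a noncoding transcript that is not in the basic annotation. Against that start the near upstream summit lies at -111 bp and would count as a promoter summit.

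By fold enrichment the 10 peaks ran from Notch2 and the upstream Hes1 pair down to Jag1, the upstream Rbpj summit and the exonic Hes1 summit. The highest lower bound was 5.53 and the lowest upper bound 8.24, so all 10 intervals overlapped. No pair of peaks was compared, so the order was not tested, and overlap alone does not make folds alike. The median fold of the 10 peaks was 5.92 and their median number of fragments 15, against 5.10 and 14 over all peaks. The caller's q-values of the 10 peaks, its p-values adjusted for many tests, ran from 7.79e-16 for Notch2 to 7e-05 for Jag1. They refer to this library pair only. Close placement was common in the genome too, since 48.8% of the protein-coding genes with a promoter summit had the nearest one within 100 bp of a start, as Rbpj, Notch2 and Hey1 did.

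**Figure D3:**
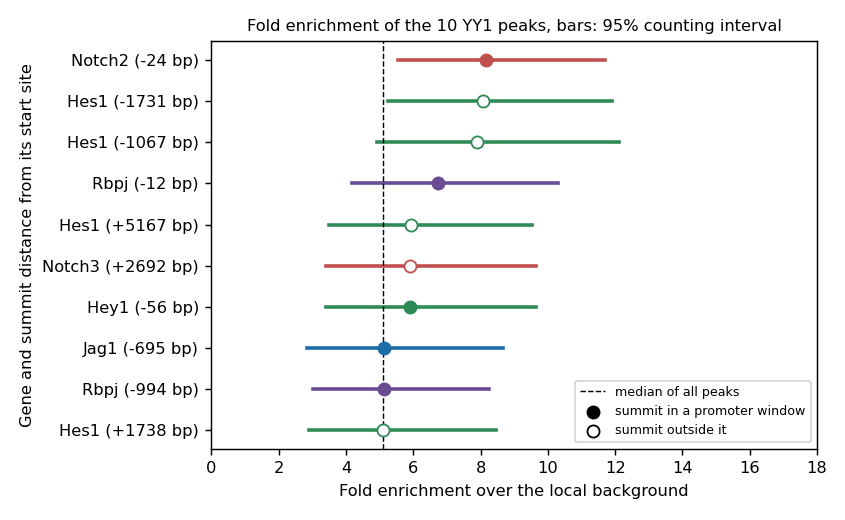
Points give the fold enrichment of each of the 10 YY1 peaks over its local background and bars the 95% counting interval from the fragment number, which covers counting error only. Filled points have the summit in a promoter window, labels give the distance from the start site, colours give the role as in the map, and the dashed line is the median of all peaks, 5.10. All 10 intervals overlap, and the points run from 5.11 to 8.17.

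The YY1 word AANATGGC, searched on both strands, was absent within 100 bp of all 10 summits. Of all peaks with a readable window 6.63% held it (310 of 4678), and nothing can be read from 0 of 10 at that share. The shorter core ATGGC, part of the same word, was within 100 bp of 3 summits, against 29.9% of all peaks. It lay 18 bp from the Jag1 summit, 16 bp from the Notch3 summit and 41 bp on both sides of the exonic Hes1 summit. Anywhere in a peak, the full word was found only in that of the Rbpj start sites, 243 bp from the summit, while 607 of all 4681 peaks held it. Another such word of Rbpj lay 713 bp downstream of a start site and outside the peak. In the promoters, taken as 1000 bp either side of any start site, 35.5% of protein-coding genes held it, among them Rbpj and Maml1 of the 10.

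The words are printed in capitals with their flanks for the genes in which they can be set against the peaks (GRCm38, along the strand that reads as printed). AANATGGC is the YY1 word, and GTGGGAA is the known word of RBPJ, through which Notch acts on its targets.
Rbpj, YY1 word, chr5:53590692-53590719, plus strand: gagtttgtggAAGATGGCgcctgttgtg
Maml1, YY1 word at the start site, chr11:50292305-50292332, minus strand: aaacaattttAAGATGGCggcggcagcg
Maml1, YY1 word downstream, chr11:50291582-50291609, minus strand: ggaggtggctAACATGGCagggcgcttg
Hes1, RBPJ word, chr16:30065249-30065275, plus strand: gaaagttactGTGGGAAagaaagtttg
Hey1, RBPJ word, chr3:8667415-8667441, plus strand: gccgcgggccGTGGGAAagtgccggcg
Rbpj, RBPJ word, chr5:53589313-53589339, minus strand: aacacgggccGTGGGAAatttcctaag
Maml1 had the YY1 word 7 bp upstream of its start and again 716 bp downstream, with no listed peak at either. This was common. Of the 1132 protein-coding genes with the word within 50 bp of a start site, 33.8% had a promoter summit and 66.2% did not. Over the whole promoter window, a summit was found at 21.4% of genes with the word and 17.3% of genes without it.

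The RBPJ word was in the promoters of 8 of the 10 genes, all but Notch2 and Jag1, and of 41.3% of all protein-coding genes. The genes are few, Rbpj was searched at 5 start sites, and the difference was not tested. The word was inside 2 of the 10 peaks, 113 bp from the Hey1 summit and 103 bp from the upstream Rbpj summit, and inside 6.05% of all peaks. It was within 100 bp of none of the 10 summits and of 2.86% of all summits with a readable window, and nothing can be read from a count of 0 at that share. At Hes1 it occurred 3 times, 78 bp upstream and 458 and 704 bp downstream of the start, all in the stretch between the YY1 peaks. Hey1 held another 238 bp downstream of its start, outside the peak. Genes with and without it had promoter summits at nearly the same share, 19.0% and 18.7%. A match of letters describes the reference sequence and says nothing of whether a factor was bound.

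Beyond these genes, 20 of 56 other genes of the pathway had a promoter summit (35.7%), and all 20 were among the 46 of them with CpG-rich promoters. Among those 46 genes the share was 43.5%, against 35.4% of all genes with CpG-rich promoters, a difference that was not tested. The median of their strongest folds was 5.38, against 5.13 over all promoter peaks. The strongest summits of Adam17, Numbl, Ep300, Tle1, Tle3 and Sin3a also lay in the promoter of another gene (Gm49586, Gm15567, 1110025M09Rik, C630043F03Rik, Gm10655 and 2700012I20Rik, in that order), so these peaks cannot be given to 1 gene alone.

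Corepressors, which sit with RBPJ or with the Hes and Hey proteins to keep genes off, made up 10 of these 20 genes, out of 14 in the list. Spen, which encodes a large corepressor that binds RBPJ, had the highest fold among them at 8.68, followed by Ctbp1 at 7.49 and Tle1 at 6.80. Kdm5a (6.05, a histone demethylase), Tle4 (5.92, and 5.38 at another summit), Hdac2 (5.38, a histone deacetylase), Ncor1 (5.04, and 3.70 at another summit), Sin3a (4.28) and Tle3 (3.28) had lower folds. Cir1, Ctbp2, Hdac1 and Tle2 had none, so paralogous pairs such as Hdac1 and Hdac2 differed. All 10 corepressor genes with a summit were among the 13 with CpG-rich promoters. Of all genes with such promoters 35.4% had a promoter summit, and of all protein-coding genes 18.8%. The corepressor role was picked from the others after its count was seen, so no test applies to it.

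Receptor turnover genes had a promoter summit at 4 of 8. Fbxw7, whose ubiquitin ligase marks the Notch intracellular domain for degradation, had the highest fold of the 56 genes, 9.96, with 28 fragments 692 bp upstream of a start. Dtx4 (5.04), Itch (4.93, a ubiquitin ligase) and Numbl (4.34, a Numb family member) were lower, and Numb, Dtx1, Dtx2 and Dtx3 had none. Of these only Numb has a CpG-rich promoter, so 4 of the 5 CpG-rich genes of this role had a summit.

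Receptor cleavage was split by protease. The genes of the furin and ADAM steps, Furin (6.30), Adam17 (6.70) and Adam10 (3.79), all had a promoter summit, whereas the gamma-secretase genes Ncstn, Aph1a, Aph1b and Psenen had none, although these promoters were CpG-rich. Among coactivators, the acetyltransferase genes Crebbp (6.31, and 4.37 at another summit) and Ep300 (2.69) had one. The acetyltransferase genes Kat2a and Kat2b, Snw1 and the Mastermind genes Maml2 and Maml3 had none, like Maml1. Of these, Kat2a and Maml2 lack a CpG-rich promoter. Mib1, which drives ligand endocytosis, had a fold of 3.71, and was the only 1 of 4 genes of that role.

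No promoter summit was found at the 4 other ligand genes Dll3, Dll4, Jag2 and Dlk1, at the receptor gene Notch4, at any of the 5 glycosylation genes or at the 4 other targets. CpG-rich promoters were held by 3 of these 4 ligand genes, 4 of the 5 glycosylation genes and 3 of the 4 targets, but not by Notch4. Among those targets Hes7 and Hes5 had summits close by. Hes7 had 7 within 10 kb, the nearest 1559 bp upstream with a fold of 6.39, and Hes5 had 1 at 3315 bp downstream with a fold of 3.53, in the promoter of its neighbour Pank4. Hey2 and Nrarp had their nearest summits at 40.0 kb and 16.2 kb.

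**Figure D4:**
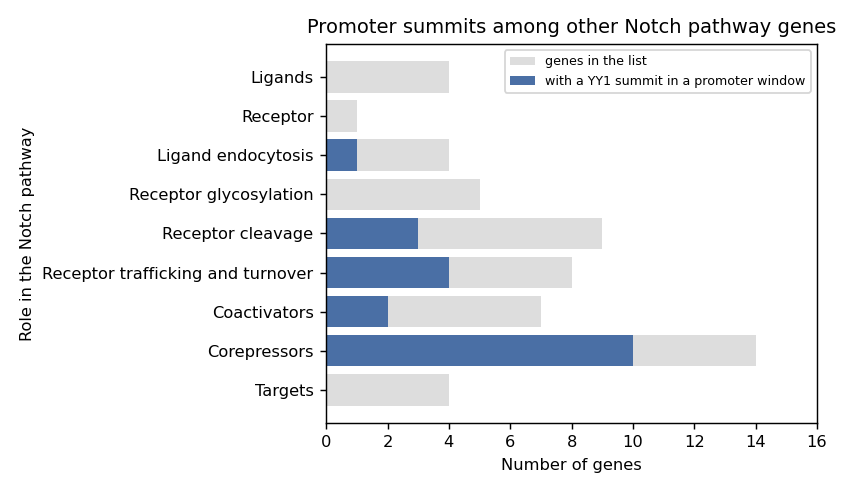
For each role of the other 56 Notch pathway genes, the grey bar gives the number of genes and the blue bar the number with a YY1 summit in a promoter window. Corepressors have 10 of 14, turnover genes 4 of 8 and cleavage genes 3 of 9, and ligands, the receptor, glycosylation genes and targets have none.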

How the data were processed

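According to the study's methods and the submitters' processing notes, the authors kept non-redundant reads mapped to mm10 with Bowtie2 and ran MACS2 with 0.0001 as the p-value limit (tool versions are not given in the sources used here). The deposited fold enrichment is the ratio of summit fragments plus 1 to local background plus 1, and the deposited p-value and q-value, both as −log10, come from the same caller. The deposited integer score was not used. Fragments and background were recovered from fold and p for all 4681 peaks (within 0.001 of the −log10 p-value), and 95% exact Poisson intervals cover counting error only.

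Summits were placed against all start sites of the GENCODE M21 basic annotation (GRCm38, the build of mm10). Words were searched on both strands of the reference. With 1 library no test was run, and members are read against shares of all protein-coding genes. The 10 genes and the list of 56 were chosen with earlier results of these data known. The named genes are these 10, every listed gene with a promoter summit (some genes of the list are not reported here by name), and genes whose start lies within 1000 bp of a summit nearest to or inside one of the 10. Other names were given because they lack a summit or were chosen after their values were seen. Alternatives were other promoter windows, stricter peak limits, other start sites, placement by overlap, other distance limits and other motif forms. The scripts were tested on simulated data. The software was Python 3.11.15, pysam 0.24.0 and matplotlib 3.10.9 beside numpy 2.4.6, scipy 1.17.1 and pandas 2.3.3.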

Additional observations from a re-analysis of the deposited data

How the results depend on the processing

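The number of the 10 genes with a promoter summit was 3 with a window of 500 bp (Jag1 left), 5 with 2000 bp or with placement by any overlap (Hes1 joined), 6 with 5000 bp (Hes1 and Notch3 joined) and 4 under the other planned settings. With the start of the gene record only it was also 4, but Hes1 replaced Rbpj. With all transcripts of the comprehensive annotation, an alternative chosen after seeing the data, it was 5 with Hes1. The share of protein-coding genes moved from 18.8% to 17.7% at 500 bp, 19.3% at 2000 bp, 20.4% at 5000 bp, 14.6% with 1000 bp upstream to 100 bp downstream, 17.4% with q under 0.01, 11.1% with a fold of at least 5 and 17.4% with gene record starts. The other list fell from 20 to 13 genes with a fold of at least 5. Counting any overlap, 5 of the 10 genes had a peak inside instead of 3, since Hey1 and Notch2 joined. The YY1 word was in 1 of the 10 peaks when the whole peak or 250 bp either side was searched, and the core ATGGC was near 3. The count of 6 within 10 kb was the same at 5 and 50 kb. No paired analysis was possible because only 1 YY1 library was made, so no replicate could be left out. The list holds no peak under 8 fragments.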

Other observations

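Summits more than 1000 and up to 2000 bp away on both sides of a start site, with none nearer, were found at 2 protein-coding genes of the annotation, Hes1 and Hes7, which both encode repressors of the same family. The pattern was chosen after its values were seen and was not tested, and Hes1 loses it when the start of its gene record or the comprehensive annotation is used. At Hes7 the folds were 6.39 at 1559 bp upstream and 4.67 at 1686 bp downstream, the latter also in the promoter of 9130213A22Rik. The other Hes7 summits lay 2288, 3262, 3829 and 4817 bp downstream and 9511 bp upstream, with folds between 4.44 and 6.20, and those at 2288 and 4817 bp stood in the promoters of 9130213A22Rik and Aloxe3.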
